A study of Mus musculus with 28 samples.

Results

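Expression of 10 genes of aldosterone-sensitive sodium reabsorption in the distal nephron was examined in bulk RNA-seq of 28 kidney libraries from male mice. The members were taken by gene symbol, and all 10 were found among the 14845 genes of the deposited table and passed the filter on low values that left 13495 tested genes. The libraries fall into 4 groups. Kidneys of db/db mice that had undergone uninephrectomy, the removal of 1 kidney (Unx), were taken at ages of 26 weeks (12 libraries) and 35 weeks (5 libraries). Kidneys of db/m mice that kept both (intact) were taken at 26 weeks (5 libraries) and 35 weeks (6 libraries). The db/db strain lacks a working leptin receptor and becomes obese and diabetic, and with uninephrectomy it served in the study to model diabetic kidney disease in a severe form. All db/db mice were Unx and all db/m mice intact, so the disease comparison joins genotype with surgery, and neither can be read alone. The labels do not say whether every library comes from its own animal, as was assumed here, so the p-values describe the spread among libraries, part of which may be technical. Depth was estimated at 21.8 to 30.8 M counts per library.

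In the distal convoluted tubule, sodium enters cells through the thiazide-sensitive cotransporter NCC, encoded by Slc12a3, which is switched on by a kinase relay from the WNK kinases to SPAK (Stk39) and its relative OSR1 (Oxsr1). Further downstream, in the connecting tubule and collecting duct, sodium enters principal cells through the epithelial sodium channel ENaC, whose alpha, beta and gamma subunits are encoded by Scnn1a, Scnn1b and Scnn1g. Aldosterone binds the mineralocorticoid receptor (Nr3c2), the enzyme 11-beta-hydroxysteroid dehydrogenase type 2 (Hsd11b2) inactivates glucocorticoids that would otherwise occupy that receptor, and the receptor induces the kinase SGK1 (Sgk1), which slows removal of ENaC from the cell surface. NCC and ENaC are both controlled after translation, by phosphorylation, proteolysis and trafficking, which RNA levels do not show.

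Windows of 250 bases before an annotated transcript start were available for 8 of the 10 members in the RefSeq table (build GRCm38.p6), 13 windows in all, of which 6 belong to Sgk1. They are shown for Sgk1, because it is the member with the largest change and a known receptor target, for Slc12a3, the NCC gene, and for 2 of the ENaC subunit genes, which lie next to each other on chromosome 7. Each is written 5′ to 3′ along the gene's strand, and capitals mark the corticosteroid receptor element, which reads AGAACA, 3 bases of any kind and TGTTCT, and the TATA box TATAAA.
Sgk1 chr10:21993640-21993889 (+): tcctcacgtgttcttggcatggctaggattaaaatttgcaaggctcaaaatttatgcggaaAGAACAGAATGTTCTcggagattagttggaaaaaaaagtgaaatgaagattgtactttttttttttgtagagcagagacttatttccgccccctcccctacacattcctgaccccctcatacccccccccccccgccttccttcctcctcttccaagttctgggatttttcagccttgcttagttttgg
Slc12a3 chr8:94328958-94329207 (+): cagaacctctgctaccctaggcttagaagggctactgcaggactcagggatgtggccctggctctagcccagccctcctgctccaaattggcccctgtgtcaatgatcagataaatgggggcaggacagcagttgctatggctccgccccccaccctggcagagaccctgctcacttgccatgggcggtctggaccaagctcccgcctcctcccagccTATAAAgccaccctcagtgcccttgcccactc
Scnn1g chr7:121734229-121734478 (+): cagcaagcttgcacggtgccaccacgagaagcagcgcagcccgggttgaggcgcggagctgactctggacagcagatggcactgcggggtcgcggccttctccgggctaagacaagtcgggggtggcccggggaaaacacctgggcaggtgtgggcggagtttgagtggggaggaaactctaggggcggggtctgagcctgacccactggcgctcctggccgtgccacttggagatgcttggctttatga
Scnn1b chr7:121864788-121865037 (+): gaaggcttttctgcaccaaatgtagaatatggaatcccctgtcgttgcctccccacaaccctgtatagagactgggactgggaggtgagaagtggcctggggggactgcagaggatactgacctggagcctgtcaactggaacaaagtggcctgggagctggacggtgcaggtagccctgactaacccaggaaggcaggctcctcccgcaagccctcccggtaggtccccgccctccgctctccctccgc

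Both strands of every window were searched. The full receptor element occurred in 1 of the 13 member windows, the Sgk1 window shown, where its first base lies 189 bases before the start, and in 3 of all 32851 windows of the same length (0.00913%). The 6 Sgk1 windows lie before different annotated starts, and of these the one printed is the one that holds this element. The half-site TGTTCT, which the full element contains, occurred in 3 of the 6 Sgk1 windows, in no window of the other members, and in 16.1% of all windows. TATAAA occurred in the Slc12a3 window 32 bases before the start, in 2 further Sgk1 windows that are not shown, and in 12.4% of all windows. The E-box CACGTG occurred in the Sgk1 window shown, 246 bases before the start, and in 6.02% of all windows. No member window held the cAMP response element (TGAC followed by GTCA), which 1.55% of all windows hold. None held the HNF1 motif (GTTAAT, 1 base of any kind and ATTAAC), which 0.00913% hold. A looser palindrome (GNACA, 3 bases of any kind and TGTNC), which the full element contains, was in 0.387% of all windows and in no member window but the Sgk1 one shown. A match describes the letters of a window, and no binding was measured here.

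Values are the authors' normalized signal, and changes are differences of log2(value + 1) with their standard errors, with adjusted p-values from limma over all 13495 genes and a call at an adjusted p below 0.05. Libraries db/db Unx replicates 3, 5 and 6 at 35 weeks stood apart from the rest on the second principal component of all tested genes (9.17% of the variance), and results that rest on that group are also given without them, which leaves 2 libraries. Where 2 changes of a gene stand together, the 26-week one precedes the 35-week one. Bulk values do not separate cell types, so fewer cells of a type and less RNA per cell cannot be told apart.

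The disease comparison asks how kidneys of diabetic, uninephrectomized mice differ from those of intact db/m mice. Of the 10 members, 9 rose at 26 weeks and 9 rose at 35 weeks, none fell at either age, and Nr3c2 was the one member not called at either. Among all tested genes, 17.2% were called higher and 17.7% lower at 26 weeks, and 15.9% were called higher and 16.4% lower at 35 weeks. The median change of the members was 0.44 on the log2 scale at 26 weeks and 0.51 at 35 weeks, beside medians of 0.02 and 0.01 over all tested genes. At 26 weeks every db/db Unx library lay above every db/m intact library for 7 members, against 5.11% of all genes. At 35 weeks this held for Slc12a3, Wnk1, Stk39, Scnn1b and Scnn1g, against 7.84% of all genes.

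**Figure D1:**
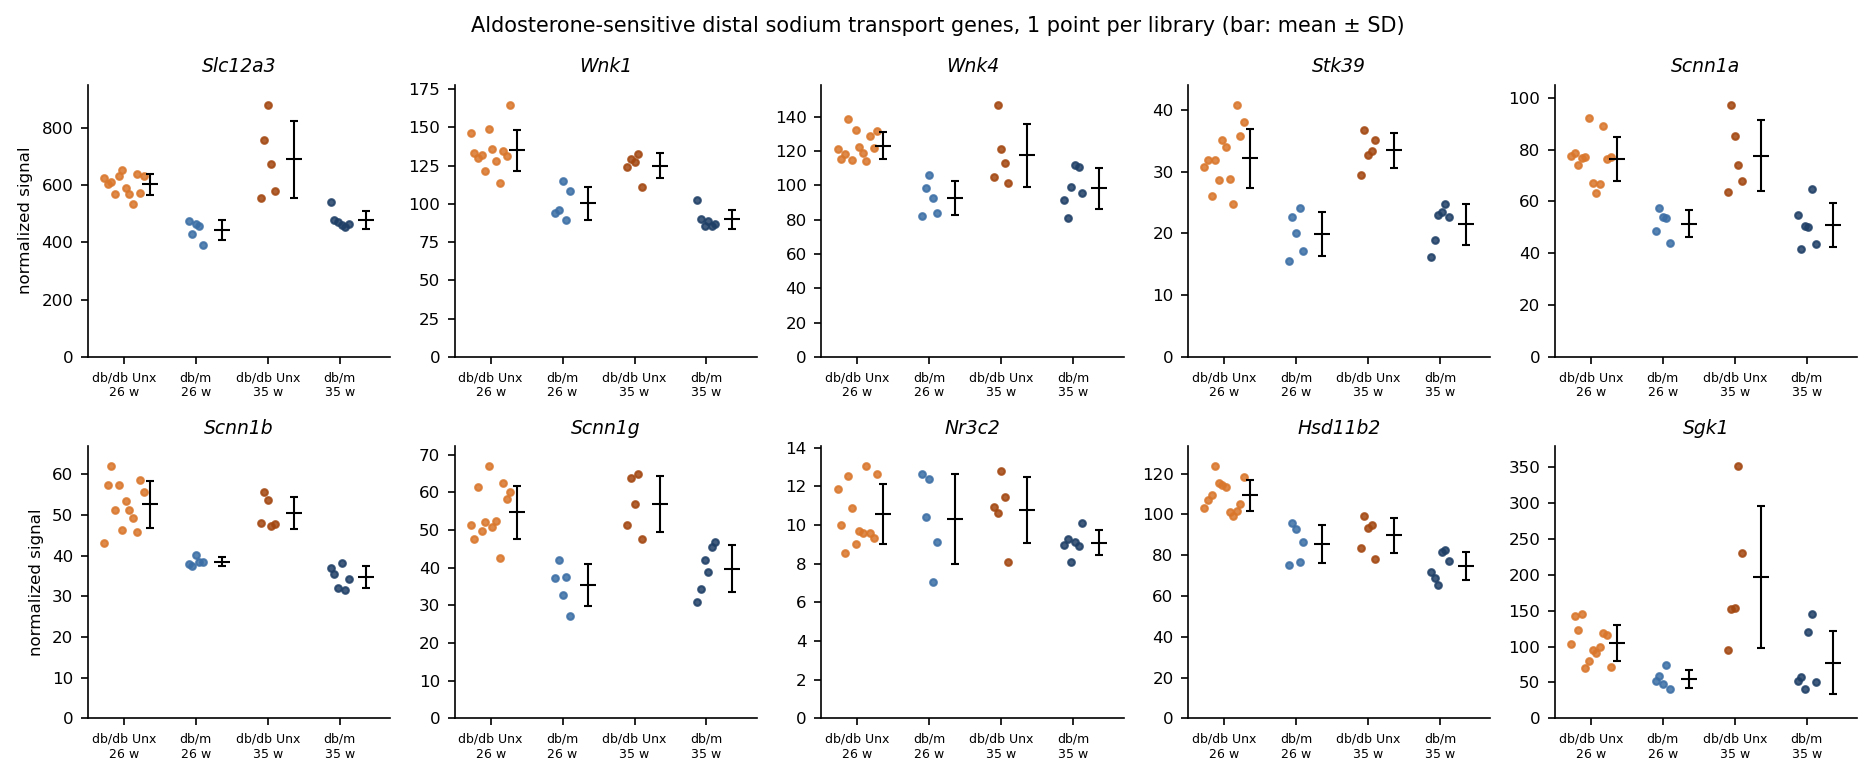
Normalized signal (y axis, linear, from 0) of the 10 members in each of the 28 libraries, 1 point per library, by group (x axis), with the group mean ± SD as a bar. The db/db Unx points lie above the db/m points at both ages for Slc12a3, Stk39, Scnn1b and Scnn1g, those of Nr3c2 overlap throughout, and Sgk1 spreads widest relative to its mean at 35 weeks, from 95.6 to 351 in db/db Unx kidneys at 35 weeks.

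Slc12a3, the NCC gene (ENSMUSG00000031766, chromosome 8, 94329201 to 94366214 in GRCm38, as are all positions here), rose at both ages. In db/db Unx kidneys at 26 weeks it ranged from 533 to 654 with a median of 608, against 476, 428, 465, 456 and 389 in the 5 db/m intact kidneys. At 35 weeks it was 555, 756, 881, 675 and 581 in db/db Unx kidneys, against 541, 477, 469, 462, 452 and 463 in db/m intact kidneys. The groups did not overlap at either age, although the 35-week db/db Unx libraries spread over a range wider than that of any other group. The change was 0.45 ± 0.07 at 26 weeks (adjusted p = 2.82e-06) and 0.51 ± 0.08 at 35 weeks (adjusted p = 2.88e-06).

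The kinases upstream of NCC rose as well. Wnk1 (ENSMUSG00000045962, chromosome 6, 119923969 to 120038672) is a WNK kinase with a full-length and a kidney-specific short transcript that the gene-level values do not separate. It had 114 to 165 with a median of 133 in db/db Unx kidneys at 26 weeks, against 93.8, 96.0, 115, 89.3 and 108 in db/m intact kidneys. There, 11 of 12 db/db Unx libraries lay above all db/m intact libraries, and at 35 weeks all 5 did, with 124, 129, 127, 132 and 111 in db/db Unx kidneys, against 85.5 to 102 with a median of 88.0 in db/m intact kidneys. Its changes were 0.42 ± 0.07 (adjusted p = 2.22e-06) and 0.47 ± 0.07 (adjusted p = 3.82e-06). Wnk4 (ENSMUSG00000035112, chromosome 11, 101260567 to 101277409) is a WNK kinase whose mutations in humans can cause hypertension with high potassium. It had 114 to 139 with a median of 121 in db/db Unx kidneys at 26 weeks, against 82.3, 98.5, 106, 92.9 and 83.8 in db/m intact kidneys. The groups were apart at 26 weeks, with a change of 0.41 ± 0.07 (adjusted p = 2.14e-05).

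At 35 weeks Wnk4 was 105, 147, 121, 113 and 101 in db/db Unx kidneys, against 81.1 to 112 with a median of 97.3 in db/m intact kidneys. The groups overlapped, with 3 of 5 db/db Unx libraries above all db/m intact libraries, and the change of 0.25 ± 0.08 (adjusted p = 0.0174) was the member call nearest to the threshold. It was lost without db/db Unx replicate 2 (0.17, adjusted p = 0.111), without db/m intact replicate 2 (0.20, adjusted p = 0.0662), and with only the 2 groups in the fit (adjusted p = 0.0606).

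Stk39 (ENSMUSG00000027030, chromosome 2, 68210445 to 68472268), which encodes SPAK, the kinase that phosphorylates NCC directly, changed most among the members after Sgk1 at both ages. It had 24.7 to 40.8 with a median of 31.9 in db/db Unx kidneys at 26 weeks, against 15.5, 22.6, 20.1, 24.0 and 17.1 in db/m intact kidneys. The values were 29.4, 36.8, 32.6, 33.3 and 35.1 in db/db Unx kidneys at 35 weeks, against 16.1 to 24.8 with a median of 22.8 in db/m intact kidneys. The groups were apart at both ages, with changes of 0.67 ± 0.11 (adjusted p = 2.92e-06) and 0.63 ± 0.12 (adjusted p = 7.46e-05). Its relative Oxsr1 was not called, with changes of 0.03 (95% CI −0.19 to 0.25) and 0.14 (95% CI −0.11 to 0.39). The log2 ratio of Stk39 to Oxsr1 within a library averaged 0.35 ± 0.22 in db/db Unx and −0.29 ± 0.47 in db/m intact kidneys at 26 weeks (SD, exact two-sided permutation test p = 0.00162, adjusted over 48 ratio tests 0.0346). At 35 weeks the ratio averaged 0.32 ± 0.17 in db/db Unx and −0.17 ± 0.22 in db/m intact kidneys, a difference of the same sign that missed the threshold after adjustment (exact p = 0.00649, adjusted p = 0.0519). The 26-week difference had an unadjusted exact p under 0.05 in all 17 fits with 1 of its libraries left out (0.48 to 0.78). Its adjusted call was lost without db/m intact replicate 1, 3 or 5 of 26 weeks and, since the adjustment runs over all ratio tests, without db/db Unx replicate 2, 3 or 6 of 35 weeks (highest adjusted p = 0.0779). Without the 3 libraries that stood apart, the 35-week difference was 0.48 (exact permutation p = 0.0714, adjusted p = 0.321). The 26-week call was lost there too (adjusted p = 0.0776).

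All 3 ENaC subunit genes rose at both ages. Scnn1a (ENSMUSG00000030340, chromosome 6, 125320659 to 125344943) is the alpha subunit, which the channel needs to conduct and whose transcription aldosterone raises in the collecting duct. It had 63.4 to 92.3 with a median of 77.0 in db/db Unx kidneys at 26 weeks, against 48.5, 57.5, 53.9, 53.5 and 44.1 in db/m intact kidneys. The 35-week values were 63.5, 97.4, 85.2, 74.2 and 68.0 in db/db Unx kidneys, against 41.8 to 65.0 with a median of 50.4 in db/m intact kidneys. The groups were apart at 26 weeks, and at 35 weeks the lowest db/db Unx library, replicate 1, lay just under the highest db/m intact library. The changes were 0.56 ± 0.09 (adjusted p = 6.55e-06) and 0.60 ± 0.10 (adjusted p = 2.08e-05).

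Scnn1b (ENSMUSG00000030873, chromosome 7, 121865038 to 121918514), the beta subunit, had 43.1 to 62.0 with a median of 52.3 in db/db Unx kidneys at 26 weeks, against 38.0, 37.5, 40.2, 38.4 and 38.5 in db/m intact kidneys. In the older mice it was 47.9, 55.6, 53.5, 47.3 and 47.7 in db/db Unx kidneys, against 31.6 to 38.1 with a median of 34.9 in db/m intact kidneys. Neither pair of groups overlapped, and the changes were 0.43 ± 0.07 (adjusted p = 5.77e-06) and 0.53 ± 0.08 (adjusted p = 2.17e-06). Scnn1g (ENSMUSG00000000216, chromosome 7, 121734479 to 121768475) is the gamma subunit, which proteases cut to open the channel fully. It had 42.7 to 67.0 with a median of 52.3 in db/db Unx kidneys at 26 weeks, against 37.2, 42.1, 32.9, 37.5 and 27.2 in db/m intact kidneys. Values at 35 weeks were 51.4, 63.7, 56.9, 64.9 and 47.7 in db/db Unx kidneys, against 30.8 to 46.8 with a median of 40.5 in db/m intact kidneys. These groups were apart as well, with changes of 0.62 ± 0.10 (adjusted p = 4.96e-06) and 0.51 ± 0.11 (adjusted p = 5.20e-04).

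The proportions of the subunit RNAs were compared as log2 ratios within each library. The ratio of Scnn1a to Scnn1b was higher by 0.13 in db/db Unx than in db/m intact kidneys at 26 weeks and by 0.07 at 35 weeks, each less than the SD between db/db Unx libraries (0.25 and 0.15). The ratio of Scnn1a to Scnn1g differed by −0.06 at 26 weeks and 0.09 at 35 weeks, and that of Scnn1b to Scnn1g by −0.19 and 0.02. No subunit ratio passed the exact permutation test in a disease comparison, the lowest unadjusted p being 0.173, which does not show that the proportions were equal.

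**Figure D2:**
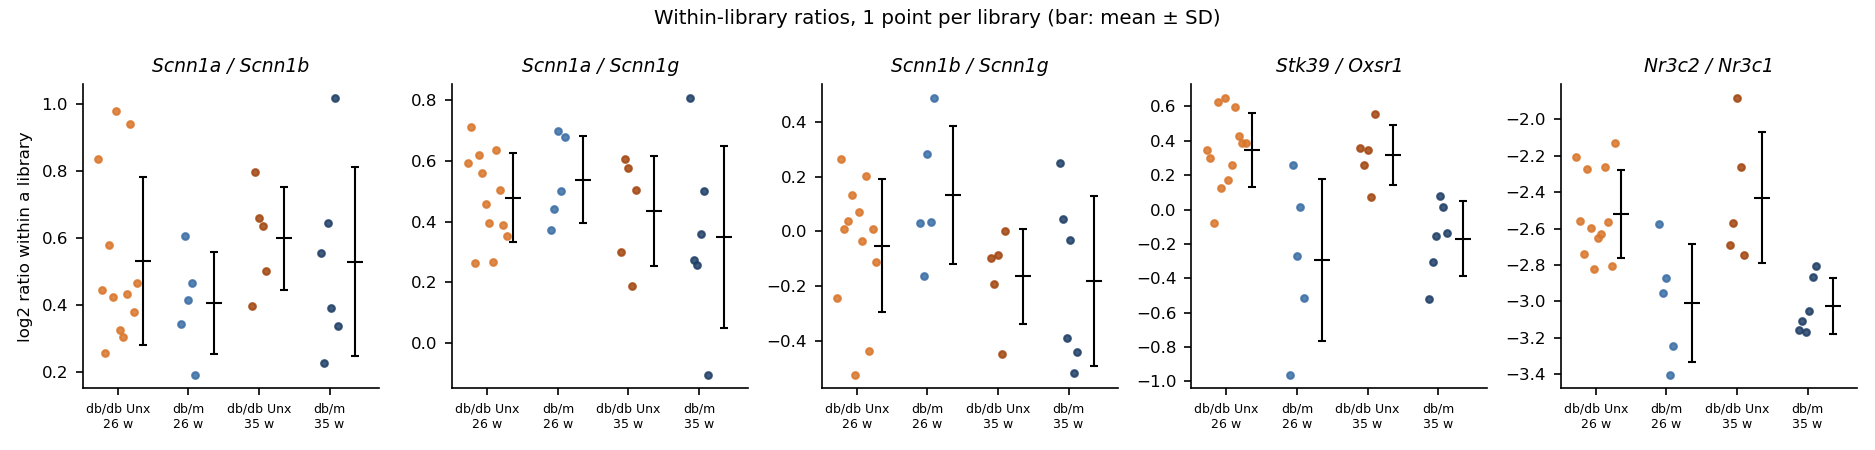
Log2 ratio of 2 genes within each library (y axis, pseudocount 1), 1 point per library by group (x axis), with the group mean ± SD as a bar. The 3 ENaC subunit ratios overlap between groups, while Stk39 over Oxsr1 averages 0.35 in db/db Unx and −0.29 in db/m kidneys at 26 weeks, and all 5 db/db Unx points of Nr3c2 over Nr3c1 lie above the 6 db/m points at 35 weeks.

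Of all members the receptor gene had the smallest estimate at both ages. Nr3c2 (ENSMUSG00000031618, chromosome 8, 76899442 to 77245012), which encodes the mineralocorticoid receptor, had 8.56 to 13.05 with a median of 9.84 in db/db Unx kidneys at 26 weeks, against 12.6, 10.4, 12.4, 7.04 and 9.11 in db/m intact kidneys. In the older mice it was 10.9, 10.6, 12.8, 11.4 and 8.09 in db/db Unx kidneys, against 8.09 to 10.1 with a median of 9.05 in db/m intact kidneys. The groups overlapped at both ages, and the change of 0.05 ± 0.12 (adjusted p = 0.8) had a 95% CI of −0.20 to 0.29 at 26 weeks. At 35 weeks it was 0.21 ± 0.14 (adjusted p = 0.246), with a 95% CI of −0.06 to 0.49. Its values rest on 168 to 424 estimated counts per library.

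Nr3c1, the glucocorticoid receptor, which binds the same DNA element, fell by 0.44 on the log2 scale at 26 weeks (adjusted p = 2.85e-06) and by 0.38 at 35 weeks (adjusted p = 2.05e-04), where the call was lost without the 3 libraries that stood apart (−0.17, adjusted p = 0.23). It ranged from 58.4 to 71.2 with a median of 64.6 in db/db Unx kidneys at 26 weeks, against 80.2, 87.1, 97.0, 84.0 and 94.98 in db/m intact kidneys. The log2 ratio of Nr3c2 to Nr3c1 averaged −2.52 ± 0.24 in db/db Unx and −3.01 ± 0.33 in db/m intact kidneys at 26 weeks (exact permutation p = 0.00356, adjusted 0.0427). At 35 weeks it averaged −2.43 ± 0.36 in db/db Unx and −3.03 ± 0.15 in db/m intact kidneys (exact permutation p = 0.00216, which is the smallest p that 5 against 6 libraries allow, adjusted 0.0346). Leaving out any 1 library of these groups kept the difference between 0.39 and 0.60 at 26 weeks and between 0.46 and 0.68 at 35 weeks, with an unadjusted exact p under 0.05 in all 17 and all 11 cases. The adjusted calls were less stable. The 26-week one was lost in 19 of 28 cases with 1 library of the series left out (highest adjusted p = 0.0892), and the 35-week one in 11 of 28, those without db/m intact replicate 3 or 5 of 26 weeks, without any 1 db/m intact library of 35 weeks, or without db/db Unx replicate 2, 3 or 6 of 35 weeks (highest adjusted p = 0.0931). Without the 3 libraries that stood apart, the 35-week difference was 0.40 (exact p = 0.0357, the smallest that 2 against 6 libraries allow, adjusted p = 0.245).

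Hsd11b2 (ENSMUSG00000031891, chromosome 8, 105518755 to 105523988) is the enzyme that keeps glucocorticoids off the mineralocorticoid receptor in principal cells. It had 99.1 to 124 with a median of 108 in db/db Unx kidneys at 26 weeks, against 75.2, 96.1, 92.6, 76.5 and 86.6 in db/m intact kidneys. The 35-week values were 83.8, 99.2, 93.4, 94.7 and 78.4 in db/db Unx kidneys, against 65.6 to 82.3 with a median of 74.6 in db/m intact kidneys. The groups were apart at 26 weeks, and at 35 weeks 4 of 5 db/db Unx libraries lay above all db/m intact libraries. The changes were 0.36 ± 0.07 (adjusted p = 3.38e-05) and 0.26 ± 0.07 (adjusted p = 0.00534), the smallest of the called members at 26 weeks.

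Sgk1 (ENSMUSG00000019970, chromosome 10, 21882184 to 21999903), the aldosterone- and glucocorticoid-induced kinase, had the largest estimates and, relative to its mean, the widest spread at 35 weeks. It had 70.5 to 146 with a median of 102 in db/db Unx kidneys at 26 weeks, against 51.4, 59.5, 47.6, 73.8 and 41.3 in db/m intact kidneys. At 35 weeks it was 95.6, 152, 154, 351 and 230.0 in db/db Unx kidneys (replicates 1, 2, 3, 5 and 6), against 51.7, 57.5, 40.5, 119.5, 145 and 50.2 in db/m intact kidneys (replicates 1 to 6). The groups overlapped at both ages: 10 of 12 and 4 of 5 db/db Unx libraries lay above all db/m intact libraries, and db/m intact replicates 4 and 5 at 35 weeks were far above the other 4 of their group. The changes were 0.91 ± 0.28 (adjusted p = 0.0111) and 1.36 ± 0.31 (adjusted p = 0.00134), and the SD was 50.3% of the mean in db/db Unx and 56.4% in db/m intact kidneys at 35 weeks.

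**Figure D3:**
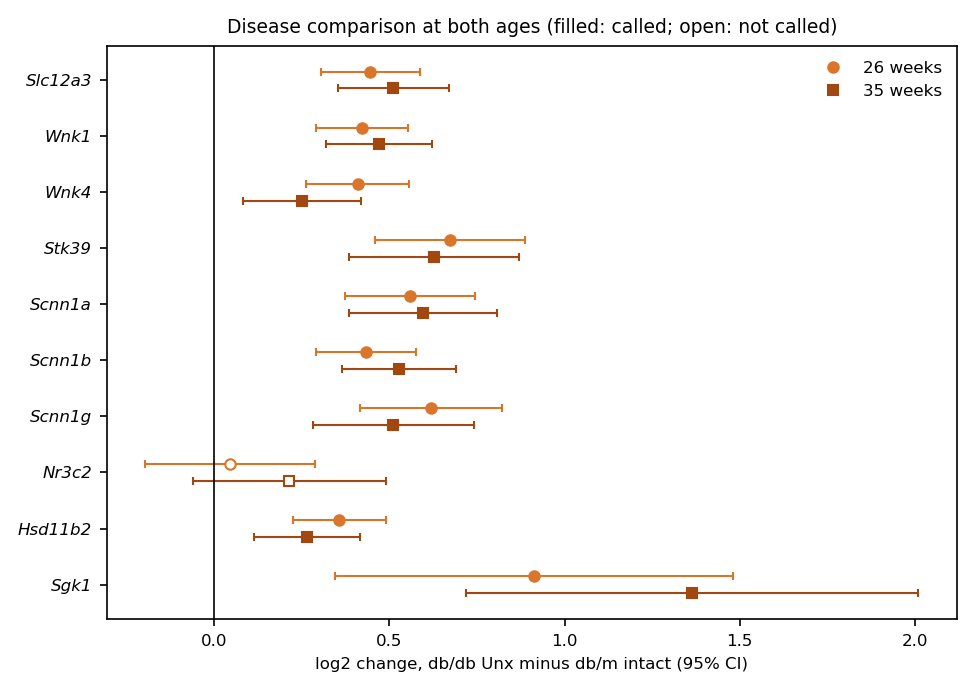
Change of each member as log2(value + 1) in db/db Unx minus db/m intact kidneys (x axis) with its 95% confidence interval, circles for 26 weeks and squares for 35 weeks, filled where called. Every estimate lies above 0, Nr3c2 is open at both ages, and the intervals of Sgk1 are the widest.

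Of the 3 db/db Unx libraries that stood apart, replicates 5 and 6 held the highest Sgk1 values. With the 3 left out, 8 members were called at 35 weeks, Sgk1 being the one lost (0.80, adjusted p = 0.175). In that fit 1132 of the 13495 tested genes were called higher, against 2148 with all libraries. The changes of Slc12a3 (0.44), Wnk1 (0.49), Wnk4 (0.34), Stk39 (0.61), Scnn1a (0.63), Scnn1b (0.56), Scnn1g (0.53) and Hsd11b2 (0.29) were past the threshold. With db/m intact replicates 4 and 5 left out, chosen for their high Sgk1 values, the Sgk1 change at 35 weeks was 1.83. Leaving out the highest values of the lower group raises the change by construction, so this fit is no test of Sgk1.

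The list of other corticosteroid receptor targets holds 8 genes, of which 3 rose and 1 fell at 26 weeks and 4 rose and 1 fell at 35 weeks, with median changes of 0.32 and 0.29, beside 0.02 and 0.01 over all tested genes. Per1, a clock gene that aldosterone and glucocorticoids induce, had 6.63 to 29.9 with a median of 13.1 in db/db Unx kidneys at 26 weeks, against 7.07, 6.76, 9.60, 5.45 and 7.80 in db/m intact kidneys. It was 11.6, 24.9, 24.2, 28.4 and 30.8 in db/db Unx kidneys at 35 weeks, against 4.89 to 10.7 with a median of 7.26 in db/m intact kidneys. The groups overlapped at 26 weeks and were apart at 35 weeks, with changes of 0.80 ± 0.27 (adjusted p = 0.0205) and 1.54 ± 0.30 (adjusted p = 2.20e-04). The 26-week call was lost without db/m intact replicate 4 (0.71, adjusted p = 0.0673), and the 35-week call without the 3 libraries that stood apart (1.14, adjusted p = 0.0562). Zbtb16, a transcription factor induced by glucocorticoids, rose by 1.48 ± 0.32 (adjusted p = 5.46e-04) and 1.51 ± 0.37 (adjusted p = 0.00191), the 35-week change being 0.92 and not called without the 3 libraries (adjusted p = 0.206). Its values were low, 3.33 to 20.6 with a median of 6.61 in db/db Unx and 1.36, 2.25, 2.22, 1.68 and 1.53 in db/m intact kidneys at 26 weeks.

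Ndrg2, a substrate of the SGK1 family of kinases, fell by 0.34 at 26 weeks (adjusted p = 4.00e-04) and by 0.76 at 35 weeks (adjusted p = 4.28e-09). Tsc22d3, a glucocorticoid-induced leucine zipper gene, was not called, with −0.23 (95% CI −0.69 to 0.22) and 0.37 (95% CI −0.15 to 0.88). Its 35-week change was 0.63 and called without db/m intact replicate 5 (adjusted p = 0.00849), and −0.0087 without the 3 libraries that stood apart (adjusted p = 0.992). Fkbp5, a cochaperone of steroid receptors, was called at 35 weeks (0.87 ± 0.26, adjusted p = 0.013) and not at 26 weeks (0.58 ± 0.23, adjusted p = 0.0533). The 35-week call was lost without the 3 libraries (0.56, adjusted p = 0.344) and with only the 2 groups in the fit (adjusted p = 0.0757). The 26-week change was called without any 1 of db/m intact replicates 1 and 4 and db/db Unx replicates 7 and 12 of 26 weeks, of db/m intact replicates 1, 5 and 6 of 35 weeks, or of db/db Unx replicate 1 of 35 weeks (adjusted p = 0.0289 to 0.0485). At 35 weeks the 5 db/db Unx libraries, in replicate order, had 105, 198, 183, 227 and 209 for Fkbp5, 34.1, 54.9, 57.4, 68.8 and 77.4 for Tsc22d3 and 3.42, 11.1, 9.54, 15.3 and 16.3 for Zbtb16. Replicate 1 was the lowest of the group for all 3 and for Sgk1 and Per1, and replicates 5 and 6 held the top pair of values for Fkbp5, Tsc22d3, Zbtb16, Per1 and Sgk1. In db/m intact kidneys at 35 weeks, replicate 5 had the highest value of its group for Sgk1, for Tsc22d3 (111, against 26.9 to 52.2 in the other 5), for Fkbp5 (194) and for Zbtb16 (10.0), while its Per1 (8.76) lay within the range of the others.

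**Figure D4:**
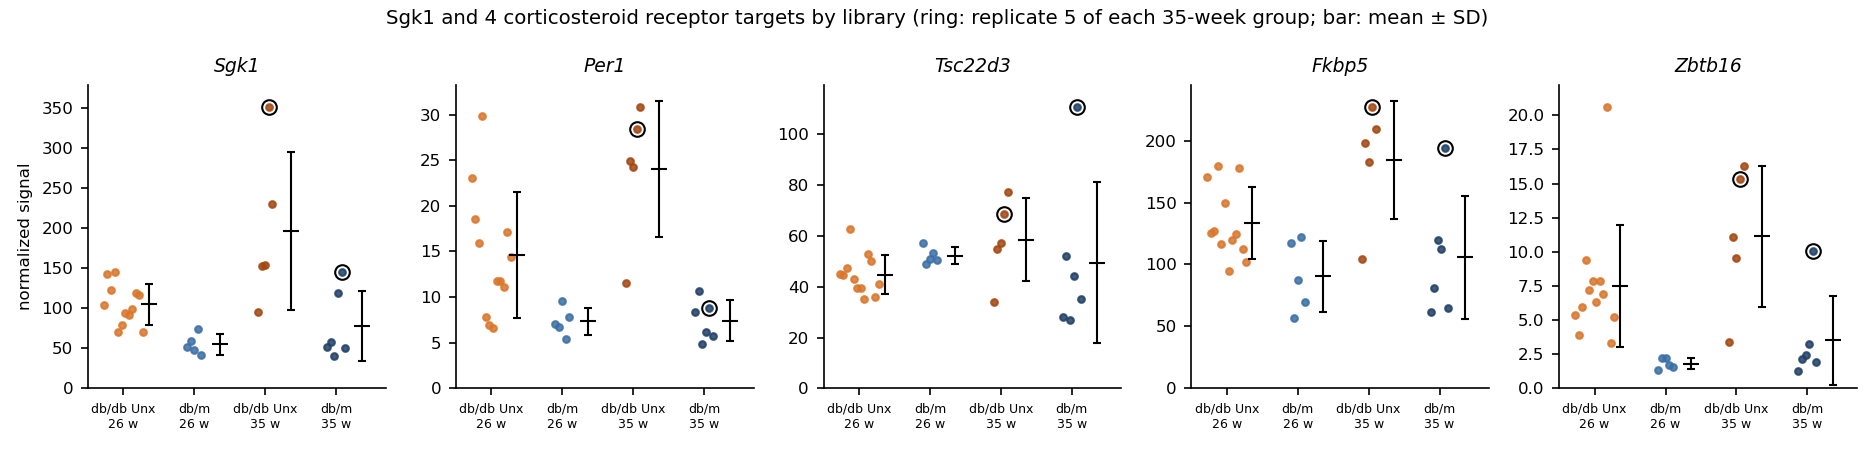
Normalized signal (y axis, linear, from 0) of Sgk1 and 4 other corticosteroid receptor targets, 1 point per library by group (x axis), with the group mean ± SD as a bar and a ring around replicate 5 of each 35-week group. The ringed db/m library is the highest of its group for Sgk1, Tsc22d3, Fkbp5 and Zbtb16 and not for Per1, and the ringed db/db Unx library is the highest for Sgk1 and Fkbp5.

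Of 12 genes listed as regulators of NCC, 11 were tested (Wnk3 was not), and 6 rose and 2 fell at 26 weeks, 4 rose and 2 fell at 35 weeks, with median changes of 0.19 and 0.08. Klhl3, the adaptor that marks WNK kinases for ubiquitination, had 25.1 to 36.4 with a median of 30.3 in db/db Unx kidneys at 26 weeks, against 15.5, 20.3, 16.8, 17.4 and 19.5 in db/m intact kidneys. It was 25.3, 25.4, 26.8, 26.8 and 24.1 in db/db Unx kidneys at 35 weeks, against 14.0 to 20.7 with a median of 17.3 in db/m intact kidneys. The groups were apart at both ages, with changes of 0.73 ± 0.09 (adjusted p = 2.58e-08) and 0.55 ± 0.10 (adjusted p = 4.65e-05). Cul3, the scaffold that works with KLHL3, had a change of −0.26 ± 0.07 at 35 weeks (adjusted p = 0.00318), and one of −0.19 that was not called without the 3 libraries (adjusted p = 0.177). Its call at 26 weeks (−0.16 ± 0.06, adjusted p = 0.04) was lost without db/m intact replicate 1, 2 or 4, without db/db Unx replicate 1, 4, 6, 7, 8 or 10 (adjusted p = 0.0501 to 0.126 over these 9), with the replicate number as a block (adjusted p = 0.131), and under quantile normalization (−0.09, adjusted p = 0.28).

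Kcnj10, the basolateral potassium channel through which NCC responds to blood potassium, was 20.2 ± 4.53 in db/db Unx and 10.9 ± 1.65 in db/m intact kidneys at 35 weeks (change 0.82 ± 0.15, adjusted p = 3.79e-05). Its 26-week call (0.33 ± 0.13, adjusted p = 0.0452) was lost without db/m intact replicate 1, 2 or 5, without db/db Unx replicate 4, 6, 9, 10 or 12 (adjusted p = 0.0609 to 0.153 over these 8), with the replicate number as a block (adjusted p = 0.121), and under quantile normalization (0.27, adjusted p = 0.113).

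Among 9 genes for ENaC processing and turnover, of which 8 were tested (Tmprss4 was not), 2 rose and 2 fell at 26 weeks and 2 rose and 1 fell at 35 weeks, with median changes of 0.02 and 0.13. St14, the membrane serine protease matriptase, had 50.2 to 70.9 with a median of 62.0 in db/db Unx kidneys at 26 weeks, against 41.7, 34.4, 32.7, 32.5 and 30.3 in db/m intact kidneys. It was 64.9, 80.1, 81.6, 66.4 and 65.2 in db/db Unx kidneys at 35 weeks, against 29.9 to 51.8 with a median of 39.4 in db/m intact kidneys. The groups were apart at both ages, with changes of 0.83 ± 0.09 (adjusted p = 3.10e-09) and 0.88 ± 0.11 (adjusted p = 1.90e-08). Spint1, an inhibitor of matriptase, rose by 0.35 ± 0.06 (adjusted p = 2.60e-05) and 0.24 ± 0.07 (adjusted p = 0.00888), the 35-week call being lost without db/db Unx replicate 2 (0.18, adjusted p = 0.0563). Plau, urokinase, fell by 0.80 (adjusted p = 1.47e-05) and 1.01 (adjusted p = 2.92e-06), with 18.5 ± 3.46 in db/db Unx and 38.5 ± 8.17 in db/m intact kidneys at 35 weeks. Prss8, the channel-activating protease prostasin, fell by 0.17 at 26 weeks (adjusted p = 0.00319), a call that quantile normalization ended (−0.01). Nedd4l, the ubiquitin ligase that SGK1 restrains, was not called (0.06, 95% CI −0.10 to 0.22, and 0.13, 95% CI −0.05 to 0.32).

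Without the 3 libraries that stood apart, the 35-week calls of Klhl3 (0.53), Kcnj10 (1.00), St14 (0.90), Spint1 (0.37), Plau (−0.91) and Ndrg2 (−0.67) were past the threshold.

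Of 7 genes for sodium exit, potassium secretion and the second corticosteroid receptor, 4 rose and 2 fell at 26 weeks and 2 rose and 3 fell at 35 weeks, with median changes of 0.18 and 0.07. Atp1b1, the beta subunit of the sodium pump, rose by 0.18 ± 0.04 (adjusted p = 5.47e-04) and 0.24 ± 0.05 (adjusted p = 5.44e-05). Kcnj1, the potassium secretory channel ROMK, rose by 0.45 ± 0.09 at 26 weeks (adjusted p = 8.58e-05) and was not called at 35 weeks (0.16 ± 0.10, adjusted p = 0.223).

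**Figure D5:**
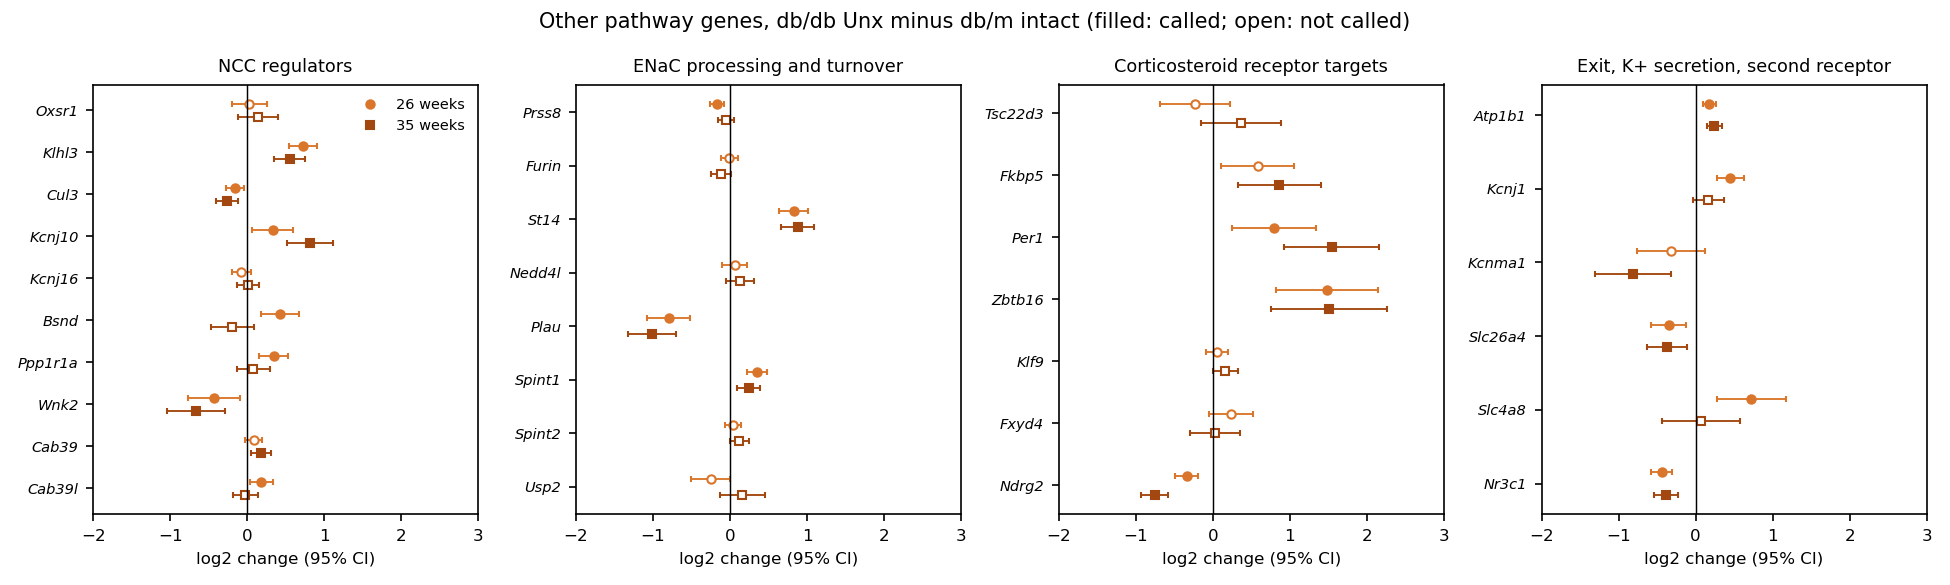
Change of tested genes of the 4 pathway lists as log2(value + 1) in db/db Unx minus db/m intact kidneys (x axis) with 95% confidence intervals, circles for 26 weeks and squares for 35 weeks, filled where called. Klhl3, St14, Per1 and Zbtb16 lie right of 0 and Plau, Ndrg2 and Nr3c1 left of 0 at both ages, all filled.

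Of 8 markers of the distal convoluted tubule, all detected, 4 rose and 1 fell at 26 weeks and 5 rose and 1 fell at 35 weeks, their summed value per library being 2590.3 to 3582 in db/db Unx and 2705 to 2956 in db/m intact kidneys at 26 weeks, and 2399 to 3522 in db/db Unx and 2564 to 3029.7 in db/m intact kidneys at 35 weeks. At 26 and 35 weeks Calb1, a calcium-binding protein of that segment, rose by 1.20 ± 0.08 and 1.12 ± 0.09. Trpm6, a magnesium channel, rose by 0.84 ± 0.16 and 0.99 ± 0.18, and Slc8a1, a sodium-calcium exchanger, by 0.84 ± 0.09 and 0.70 ± 0.11. Egf, a growth factor, fell by 0.57 and 0.87. Of 8 principal cell markers, all detected, 5 rose and 1 fell at 26 weeks and 3 rose and 1 fell at 35 weeks, with sums of 1066 to 1525 in db/db Unx and 630.2 to 915 in db/m intact kidneys at 26 weeks, and 1091 to 1564 in db/db Unx and 767 to 1378 in db/m intact kidneys at 35 weeks. Aqp2, the water channel of those cells, rose by 1.03 ± 0.16 and 0.59 ± 0.18, the 35-week call being lost without the 3 libraries that stood apart (0.47, adjusted p = 0.226). Gata3 and Tfcp2l1, transcription factors, rose by 0.68 ± 0.13 and 0.85 ± 0.15 and by 0.78 ± 0.08 and 0.74 ± 0.09. Aqp4, their basolateral water channel, fell by 1.17 and 1.63.

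Of 7 proximal tubule markers, none rose and 5 fell at each age, with sums of 9725 to 11551 in db/db Unx and 14091 to 16397 in db/m intact kidneys at 26 weeks, and 9158 to 10445 in db/db Unx and 14199 to 15891 in db/m intact kidneys at 35 weeks. Lrp2, the endocytic receptor megalin, fell by 0.56 and 0.74. Slc34a1, a phosphate transporter, fell by 0.26 and 0.55, but was called higher at 26 weeks (0.20) and not called at 35 weeks (−0.11) under quantile normalization. Of 6 macrophage markers, none rose and 2 fell at 26 weeks and 3 rose and none fell at 35 weeks. Of 5 fibroblast markers, 4 rose and none fell at each age. The part of these shifts in the member changes was not tested. Within a library, Slc12a3 relative to the mean log2 value of the 8 distal convoluted tubule markers was higher by 0.10 in db/db Unx than in db/m intact kidneys at 26 weeks (exact permutation p = 0.074, adjusted 0.197) and by 0.15 at 35 weeks (exact p = 0.0346, adjusted 0.111), or by 0.04 there without the 3 libraries that stood apart. That mean includes Egf, the only marker of the list called lower (−0.57 and −0.87), against 4 and 5 called higher. Egf lowers the mean in db/db Unx kidneys and so raises the difference. The markers called higher, among them Calb1, Trpm6 and Slc8a1, raise the mean there and so lower the difference. Slc12a3 relative to the markers without Egf was not tested. Relative to the 8 principal cell markers, Scnn1a was higher by 0.18 and 0.48, Scnn1b by 0.06 and 0.41, and Scnn1g by 0.24 and 0.39 at 26 and 35 weeks. None of these passed after adjustment, the exact p of the 35-week differences being 0.0195, 0.013 and 0.0152 for Scnn1a, Scnn1b and Scnn1g. Without the 3 libraries those differences were 0.43, 0.36 and 0.33. The mean of the principal cell markers includes Aqp4, the only one called lower (−1.17 and −1.63), against 5 and 3 called higher. Aqp4 lowers that mean in db/db Unx kidneys and so raises the differences. The markers called higher, among them Aqp2, Gata3 and Tfcp2l1, raise that mean there and so lower the differences. The subunits relative to the markers without Aqp4 were not tested.

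The age comparison asks which members differed between 35 and 26 weeks within a genotype. In db/db Unx kidneys Hsd11b2 fell and no other member was called, against 11.3% of all genes called in either direction and 6.14% called lower, and 3 members (Hsd11b2, Sgk1 and Slc12a3) had an unadjusted p under 0.05. It was 89.9 ± 8.54 at 35 weeks and 109 ± 7.72 at 26 weeks (SD, n = 5 and 12), a change of −0.28 ± 0.07 (adjusted p = 0.00449). In db/m intact kidneys it was 74.7 ± 6.92 at 35 weeks and 85.4 ± 9.38 at 26 weeks (n = 6 and 5), a change of −0.19 ± 0.07 that was not called (adjusted p = 0.121), and the difference between the 2 changes was −0.09 ± 0.10 (adjusted p = 0.781). Without the 3 libraries that stood apart, the db/db Unx change was −0.26 and no longer called (adjusted p = 0.48, with 2 libraries left at 35 weeks), in a fit that called 1 gene higher and 7 lower of all 13495. The labels give no batch, and a batch that differed between ages and age itself cannot be told apart.

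Sgk1 was higher by 0.80 ± 0.28 in db/db Unx kidneys at 35 than at 26 weeks, which missed the threshold (adjusted p = 0.0602). It passed without db/db Unx replicate 1 of 35 weeks (1.03, adjusted p = 0.018) and, through the spread shared by all groups, without db/m intact replicate 5 of 35 weeks (adjusted p = 0.0378). It was 0.56 without db/db Unx replicate 5 of 35 weeks (adjusted p = 0.267), the lowest value with 1 library left out, and 0.24 without the 3 libraries that stood apart (adjusted p = 0.941). Slc12a3 differed by 0.18 ± 0.07 (adjusted p = 0.0963) and passed without db/db Unx replicate 1 (0.25, adjusted p = 0.0135) or replicate 6 (0.23, adjusted p = 0.0467) of 35 weeks. It was 0.08 without db/db Unx replicate 3 of 35 weeks (adjusted p = 0.471), the lowest value with 1 library left out, and 0.11 without the 3 libraries (adjusted p = 0.828). Relative to the distal convoluted tubule markers, Slc12a3 was higher at 35 than at 26 weeks by 0.25 in db/db Unx (exact permutation p = 6.46e-04, adjusted 0.031) and by 0.19 in db/m intact kidneys (exact p = 0.00649, adjusted 0.0519). The adjusted call in db/db Unx was lost without replicate 2, 3 or 6 of 35 weeks (highest adjusted p = 0.0569), and the difference was 0.13 without the 3 libraries that stood apart (exact p = 0.0879, adjusted 0.321). These ratios also hold the change of the markers, whose median with age was −0.15 in db/db Unx and −0.18 in db/m intact kidneys. Slc12a3 itself changed by 0.18 and 0.11 there, neither called. In db/m intact kidneys no member was called between ages in limma, against 7.4% of all genes, and 2 members had an unadjusted p under 0.05. The interaction of disease with age gave no call among members, against 0.548% of all genes, and 0 members had an unadjusted p under 0.05. The widest interval there was that of Sgk1, −0.41 to 1.31 around 0.45.

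Levels were compared between genes only after division by transcript length. With the length of the principal transcript, Slc12a3 was highest in every group, with 139.9 ± 8.47 signal per kb in db/db Unx and 103 ± 8.05 in db/m intact kidneys at 26 weeks, and its range did not overlap that of the next gene in any group. At 26 weeks Hsd11b2 followed with 59.4 ± 4.20 signal per kb in db/db Unx and 46.4 ± 5.10 in db/m intact kidneys. In db/db Unx kidneys at 35 weeks Sgk1 came second with 63.5 ± 31.9 signal per kb, a range that overlaps that of Hsd11b2 with 48.8 ± 4.64. The ENaC subunits lay close together, Scnn1a at 21.8, Scnn1b at 21.2 and Scnn1g at 18.3 in db/db Unx and 14.7, 15.5 and 11.8 in db/m intact kidneys at 26 weeks, with ranges that overlap between neighbours. Stk39 and Wnk1 were lower, and Nr3c2 was lowest with 1.79 in db/db Unx and 1.74 in db/m intact kidneys. With the length of all annotated exons together, Slc12a3 came to 54.2 and Hsd11b2 to 59.4 signal per kb in db/db Unx kidneys at 26 weeks, with overlapping ranges, so the order of these 2 at 26 weeks depends on the length used. At 35 weeks Slc12a3 was first with this length too, with overlapping ranges. It had 62.0 against 48.8 for Hsd11b2 in db/db Unx and 42.9 against 40.6 in db/m intact kidneys. Nr3c2 was lowest with either length in all 4 groups.

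Across the 12 db/db Unx libraries at 26 weeks, members were compared pair by pair. Slc12a3 and Scnn1a were the pair most alike, with a Pearson r of 0.75 and a Spearman rho of 0.825 (100000 permutations, p = 0.0048 and 0.00168, adjusted over 45 pairs 0.201 and 0.0756), and r was 0.61 without the 2 libraries farthest from the median of Slc12a3. None of the 45 pairs passed after adjustment, although 9 had an unadjusted p under 0.05 for r and 8 for rho, and r ranged from −0.57 to 0.75. As a description over all 28 libraries, after subtraction of group means, the tested genes most like Slc12a3 were Klk1 (a kallikrein, r = 0.78), Cxcl10 (a chemokine, r = 0.78, and 0.66 without db/db Unx replicate 3 of 35 weeks) and Ckmt1 (r = 0.72). Those most like Scnn1a were Ckb (brain-type creatine kinase, r = 0.77) and Rhcg (an ammonia channel, r = 0.74). Those most like Scnn1b were Dhdh (r = 0.76), Zbtb39 (r = 0.67) and Mterf2 (r = 0.65), and those most like Sgk1 were Slain2 (r = 0.80), Ccn2 (connective tissue growth factor, r = 0.77) and Tsc22d3 (r = 0.73). All these points share libraries and depth.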

How the data were processed

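Total RNA of male mouse kidney was sequenced in 28 libraries, prepared with TRIzol, an RNeasy kit and Nextera XT per the labels. Per the submitters' processing notes, DRAGEN and GRCm38 (mm10) were used. Not given in the sources used here were version, annotation and scaling. The deposited table holds 1 normalized signal value per gene and library, scaled by the authors, and summing to 896873 to 1018934 per library. Of the low values, 89.5% to 93.0% per library were multiples of 1 library step to within 0.1 of a step, which gave the depth estimate. That share was too low for a count model. Of 14845 identifiers, 14834 matched a symbol in GENCODE M21.

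The filter kept 13495 genes that reached 1 in 5 or more libraries. The deposited values were fitted as log2(value + 1) with limma 3.58.1 in R 4.3.3 (1 mean per group, shared spread, mean-variance trend, robust moderation, two-sided, Benjamini-Hochberg adjustment over all tested genes, called at 0.05), for 5 contrasts: disease at 26 and 35 weeks, age in each genotype, and their interaction. The fit was tested on simulated data. Changes understate those of low genes because of the pseudocount of 1. Within-library log2 ratios (12 ratios in 4 contrasts, 48 tests) were tested by exact permutation. Principal component 1 (40.3% of the variance) separated db/db Unx from db/m intact libraries. Libraries of a group correlated at 0.966 to 0.990.

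The members and lists were chosen with earlier results of these data known. Named genes were the members, the genes of the ratios, up to 4 called genes per list with the smallest adjusted p, and the 3 genes most alike to Slc12a3, Scnn1a, Scnn1b and Sgk1. Some genes that the rule names are not reported here. Fkbp5, Tsc22d3 and Nedd4l were named after their values were seen. Alternatives were another pseudocount, no filter, quantile or median-ratio scaling, unmoderated spread, a 2-group fit, the replicate number as a block, and leaving out libraries. Markers of the thick ascending limb (4 of 6 up, 1 down at 26 weeks, 1 up and 2 down at 35 weeks), intercalated cells (2 of 6 up and 1 down, then 0 up and 2 down) and endothelium (0 of 5 up and 2 down at both ages) were also read. T cell markers (1 of 4 tested) and adrenal cortex markers (2 of 5 tested) had no call. Scripts used Python 3.11.15 with pandas 2.3.3, numpy 2.4.6 and scipy 1.17.1.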

Additional observations from a re-analysis of the deposited data

Results flagged for a closer look

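In db/m intact kidneys at 35 weeks, replicate 1 had a Slc12a3 value of 540.5, while the other 5 libraries lay between 451.7 and 476.8. The same library had a Wnk1 value of 102.3, while the others lay between 85.5 and 89.9. Both were marked because the gap to the nearest library was a large share of the group's whole range. Of 30 combinations of member and group that were checked in this way, 2 were marked, and chance marks about 1 in 20. Both values stayed under the lowest db/db Unx value of that age.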

How the results depend on the processing

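At 26 weeks 9 members were called under every alternative run, and at 35 weeks 8 or 9, with 8 to 9 when 1 library was left out. Disease changes of members reversed once outside single libraries, for Nr3c2 at 26 weeks under quantile normalization (−0.030). In the age comparison of db/db Unx kidneys, 1 member was called, 2 under quantile normalization (Slc12a3 being added), 1 to 3 when 1 library was left out, 0 without the 3 libraries that stood apart and 2 without the 2 db/m intact libraries with the highest Sgk1, both choices made after seeing the data. Over all genes, those fits called 1 higher and 7 lower, and 715 higher and 892 lower. The counts for age in db/m intact kidneys and for the interaction were 0 to 0 when 1 library was left out. The 4 ratios called became 13 with a pseudocount of 5 and 0 to 8 when 1 library was left out, and 0 without the 3 libraries that stood apart. Values that changed sign were as follows. Without the 3 libraries, the Slc12a3 interaction was −0.0028, the Sgk1 interaction −0.112, Wnk4 with age in db/db Unx 0.014, Kcnj1 at 35 weeks −0.079, Tsc22d3 at 35 weeks −0.0087 and Prss8 at 35 weeks 0.0075. Without the 2 db/m intact libraries, Wnk4 with age in db/m was −0.012, Sgk1 with age in db/m −0.112 and the Stk39 interaction 0.042. Under quantile normalization, Nr3c2 with age in db/db Unx was −0.030, Prss8 at 35 weeks 0.088 and Slc34a1 at 26 weeks 0.201 and called (adjusted p = 0.000445). With 1 library left out, sign changes lay in these ranges, none of them called: Slc12a3 interaction −0.028 to 0.139, Wnk1 interaction −0.0021 to 0.089, Stk39 interaction −0.121 to 0.035, Scnn1a interaction −0.047 to 0.110, Scnn1a age in db/db Unx −0.072 to 0.081, Scnn1a age in db/m −0.096 to 0.029, Nr3c2 disease at 26 weeks −0.071 to 0.120, Nr3c2 age in db/db Unx −0.036 to 0.114, Foxi1 disease at 35 weeks −0.047 to 0.125, Ptger3 disease at 35 weeks −0.030 to 0.213. The cause of these reversals was not tested.

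With the replicate number as a block, 9 members were called in each disease comparison, 1 with age in db/db Unx and 0 in the interaction, the Stk39 interaction was 0.064, the Scnn1a interaction −0.032 and Scnn1a with age in db/db Unx −0.045. The block ended the 26-week calls of Cul3 and Kcnj10. Same-numbered libraries did not deviate together (correlations of −0.13 to 0.08), so the numbers were not taken to pair animals. Over all 13495 genes, 255 were called lower with age in db/db Unx under the block, against 6.14% without it. Those called higher with age there were 697 without the block and 228 under it. In the disease comparisons under the block, 1921 genes were called higher at 26 weeks and 2019 at 35 weeks. No scaling moved the median of all genes by more than 0.1. Nr3c2 has the fewest estimated counts of the members, 168 in the lowest library, and 5 libraries limit the 35-week db/db Unx group.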
